A study of Mus musculus with 17 samples.

Results

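The 10 genes described here encode proteins that move or bind zinc, namely the transporters Slc30a1, Slc30a5, Slc30a7, Slc30a8, Slc30a9, Slc39a6, Slc39a10 and Slc39a14 and the metallothioneins Mt1 and Mt2. They were chosen by symbol and are 10 of the 55357 genes in the deposited tables. Expression was measured by RNA sequencing of polyA RNA in β cells sorted from mouse islets, in 17 samples. Control β cells, which the sample labels call WT, gave 3 samples cultured for 72 hours at 2.8 mM glucose (low) and 4 at 16.7 mM glucose (high), and 5 samples at each of these concentrations were from Pcbp2 βKO mice. Per the study's methods, both genotypes carried RIP-Cre, a Cre recombinase driven by the rat insulin promoter, and the Cre-inducible Rosa26 tdTomato reporter, on a C57BL/6 background, and the knockout also carried Pcbp2 fl/fl, conditional alleles of the RNA-binding protein PCBP2. The labels name Cre for the knockout alone. All samples came from male mice, whose age is not given in the sources used here. Cells were sorted as positive for tdTomato and negative for DAPI, so that the sort selected cells that had recombined the reporter, not cells shown to have lost Pcbp2. The labels do not say whether replicates came from separate mice, and p values measure the spread between these samples.

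Zinc transporters form 2 families that work in opposite directions. Proteins of the SLC30 family, named ZnT, move zinc out of the cytosol into organelles or out of the cell, and those of the SLC39 family, named ZIP, move zinc into the cytosol from outside or from organelles. β cells hold much of their zinc in insulin granules, which ZnT8, the product of Slc30a8, loads and where zinc packs with insulin. Metallothioneins are small, cysteine-rich proteins that bind zinc in the cytosol, and their genes are classic targets of the zinc-sensing transcription factor MTF1.

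Levels are given as TPM, a share of all transcripts scaled to transcript length, where genes are compared with each other. Differences between groups are given as CPM, the estimated counts of a gene per 1e+06 counts after scaling by the TMM method, and as log2 fold changes of the counts. The 2 scales differ in how they treat the insulin mRNAs. Ins1 and Ins2 took 9.83 to 10.5% of the estimated counts in control cells at 2.8 mM and 22.3 to 33.1% at 16.7 mM, and 5.04 to 10.5% and 25.3 to 30.3% in Pcbp2 βKO cells. Ins2 alone took a larger share in TPM. Its group means were 322519 and 542347 TPM in control cells at 2.8 and 16.7 mM. In Pcbp2 βKO cells they were 238766 and 570811 TPM. A gene that keeps its place among the other genes therefore has a lower TPM at 16.7 mM. The median log2 fold change of all tested genes between the glucose concentrations in control cells was 0.04 in counts scaled by TMM and -0.24 on the scale of log2(TPM + 1). In Pcbp2 βKO cells these medians were 0.01 and -0.33. On log2(TPM + 0.1), which compresses low values less, the medians were -0.56 in control and -0.71 in Pcbp2 βKO cells.

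Total estimated counts per sample lay between 47385513 and 82419400, and 22784 genes passed the filter on low counts, among them all 10 described here. Pcbp2 was at 62.5 and 40.4 CPM in control cells at 2.8 and 16.7 mM and at 17.4 and 7.66 CPM in Pcbp2 βKO cells, in the direction of the labels. Among the 9 samples at 16.7 mM, 3 stood apart on the first principal component, with scores of 9.9 for control replicate 4 and 21.4 and 33.2 for Pcbp2 βKO replicates 4 and 5, against 90.9 to 99.1 in the other 6. The 8 samples at 2.8 mM scored from -105.5 to -42.4. Summed alpha cell markers, almost all of it glucagon mRNA (Gcg), ranged from 625 to 2544 CPM in control cells at 2.8 mM, 261 to 1448 at 16.7 mM, 1452 to 9162 in Pcbp2 βKO cells at 2.8 mM and 172 to 1301 at 16.7 mM. The alpha cell factors Irx2 and Irx1 reached at most 1.27 and 0.104 CPM in any sample. The highest alpha sums at 16.7 mM were those of control replicate 4 (1448 CPM) and Pcbp2 βKO replicates 5 and 4 (1301 and 956 CPM), the samples that stood apart. In bulk samples, fewer cells of a type and less RNA per cell cannot be told apart.

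MTF1 binds a short motif upstream of metallothionein genes. The sequences just upstream of Mt1, Mt2, the related Mt3 and the zinc exporter Slc30a1, itself a known MTF1 target, are therefore shown beside the values of these genes. All positions are on the GRCm39 build. On chromosome 8, Mt4, Mt3, Mt2 and Mt1 follow each other along the forward strand, with 13558, 17730 and 5502 bases between neighbouring genes. Mt1 (ENSMUSG00000031765) spans 94905710 to 94906955 and Mt2 (ENSMUSG00000031762) spans 94898819 to 94900207 in GENCODE release M39. Each printed sequence is the 250 bases before the annotated start of the most abundant transcript, read from the forward strand of GRCm39, 5′ to 3′. The windows are chr8:94905460-94905709 for Mt1, chr8:94898882-94899131 for Mt2, chr8:94878970-94879219 for Mt3 and chr1:191638593-191638842 for Slc30a1. The Mt2 window lies within the annotated gene, since another of its transcripts starts further upstream. Capitals mark the core of the metal response element, the MTF1 site, searched as TGCACNC and TGCGCNC on both strands.
Mt1: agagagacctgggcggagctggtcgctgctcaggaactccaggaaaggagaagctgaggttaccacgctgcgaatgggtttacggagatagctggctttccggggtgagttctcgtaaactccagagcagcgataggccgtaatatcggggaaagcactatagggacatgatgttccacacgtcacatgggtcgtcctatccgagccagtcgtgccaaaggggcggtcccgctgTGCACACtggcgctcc
Mt2: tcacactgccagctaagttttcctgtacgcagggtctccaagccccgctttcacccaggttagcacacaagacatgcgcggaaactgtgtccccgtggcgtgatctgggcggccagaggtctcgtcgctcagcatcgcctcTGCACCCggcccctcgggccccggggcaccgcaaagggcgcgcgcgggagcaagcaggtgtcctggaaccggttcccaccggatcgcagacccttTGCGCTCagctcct
Mt3: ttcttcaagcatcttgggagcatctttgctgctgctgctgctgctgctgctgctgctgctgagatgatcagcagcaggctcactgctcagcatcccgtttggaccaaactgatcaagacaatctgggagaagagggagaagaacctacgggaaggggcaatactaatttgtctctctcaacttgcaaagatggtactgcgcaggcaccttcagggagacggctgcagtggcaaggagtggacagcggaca
Slc30a1: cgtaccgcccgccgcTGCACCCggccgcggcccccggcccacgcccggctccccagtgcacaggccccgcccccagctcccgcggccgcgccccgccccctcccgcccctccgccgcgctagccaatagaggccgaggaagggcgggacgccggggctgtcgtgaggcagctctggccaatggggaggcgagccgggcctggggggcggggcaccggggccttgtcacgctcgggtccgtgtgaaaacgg
The window of Mt1 held 1 core, that of Mt2 held 2, that of Slc30a1 held 1 and that of Mt3 held none. None was found in the windows of the other 7 genes. Of 15581 windows of the same length, taken from the tested protein-coding genes found in the annotation, 24.9% held at least 1 core and 5.93% at least 2. The count depends on where a transcript is taken to start. In the 500 bases centred on the same starts, Mt2 held 7 cores, Mt1 held 5, and Mt3, Slc30a1 and Slc30a8 held 3 each, and 0.0706%, 0.68% and 6.62% of all windows of that length held at least 7, 5 and 3. Most of these cores lay in the 250 bases from the start on, outside the upstream windows. There Mt2 held 5, Mt1 held 4, Mt3 and Slc30a8 held 3 each and Slc30a1 held 2. A match to these letters describes the sequence and shows no binding.

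Across the 10 genes, levels spanned a wide range. Averaged over the 4 groups, Mt1 was the most abundant at 1382 TPM, followed by Mt2 at 309, Slc30a8 at 258, Slc30a5 at 37.0, Slc30a9 at 35.6, Slc39a6 at 14.6, Slc30a7 at 10.8, Slc39a14 at 4.73, Slc39a10 at 3.41 and Slc30a1 at 0.272 TPM. Several neighbours in this order were not separated. Mt2 exceeded Slc30a8 in all 3 control samples at 2.8 mM and in 1 of 4 at 16.7 mM, and the ranges of Slc30a5 and Slc30a9 overlapped in every group. The ranges of Slc39a6 and Slc30a7 overlapped in both genotypes at 16.7 mM, and those of Slc39a14 and Slc39a10 overlapped in control cells at 16.7 mM. Slc30a8 was above Slc30a5, and Slc39a10 above Slc30a1, in all 17 samples without overlap in any group.

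**Figure D1:**
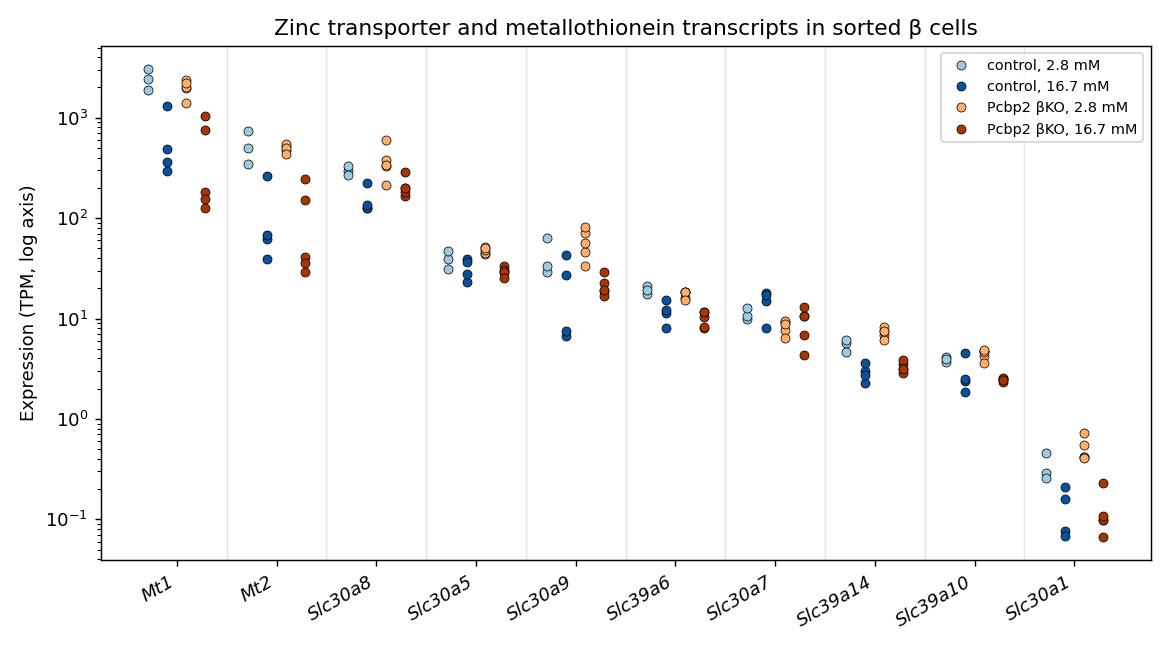
Expression of the 10 genes in TPM on a log axis, with 1 point per sample and the 4 groups side by side within each gene, ordered by mean level. All points of Mt1 and Slc30a8 lie above those of the other 7 transporters, Mt2 reaches down among Slc30a5 and Slc30a9 at 16.7 mM, Slc30a1 lies below 1 TPM in all samples, and for most genes the points at 16.7 mM sit below those at 2.8 mM on this scale.

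The first comparison asked how these transcripts differed between high and low glucose in control β cells. Calls required an adjusted p below 0.05 together with a fold above 1.5, by the quasi-likelihood method of edgeR with the Benjamini-Hochberg correction taken over the 22784 tested genes. Of the 10 genes 1 was called, Slc30a7, which was higher at 16.7 mM, where 13.8% of all tested genes were called, and 4 of the 10 had an unadjusted p under 0.05, as did 29.3% of all genes. The log2 fold changes of the 10 genes ran from -1.64 (Mt2) to 1.10 (Slc30a7), with a median of -0.04 beside 0.04 over all genes. The same comparison in Pcbp2 βKO cells called 2 of the 10, Slc30a7 as higher and Slc30a1 as lower, with 23.8% of all tested genes called, and gave an unadjusted p under 0.05 for 6, with 39.7% of all genes. Its log2 fold changes ran from -1.32 (Mt2) to 1.13 (Slc30a7), with a median of 0.11 beside 0.01. These comparisons use separate samples. Their difference, the interaction of genotype and glucose, was called for none of the 10 genes by edgeR and for 0.00439% of all genes, with log2 differences of -0.41 to 0.40 and no unadjusted p under 0.05 among the 10, beside 4.57% of all genes.

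**Figure D2:**
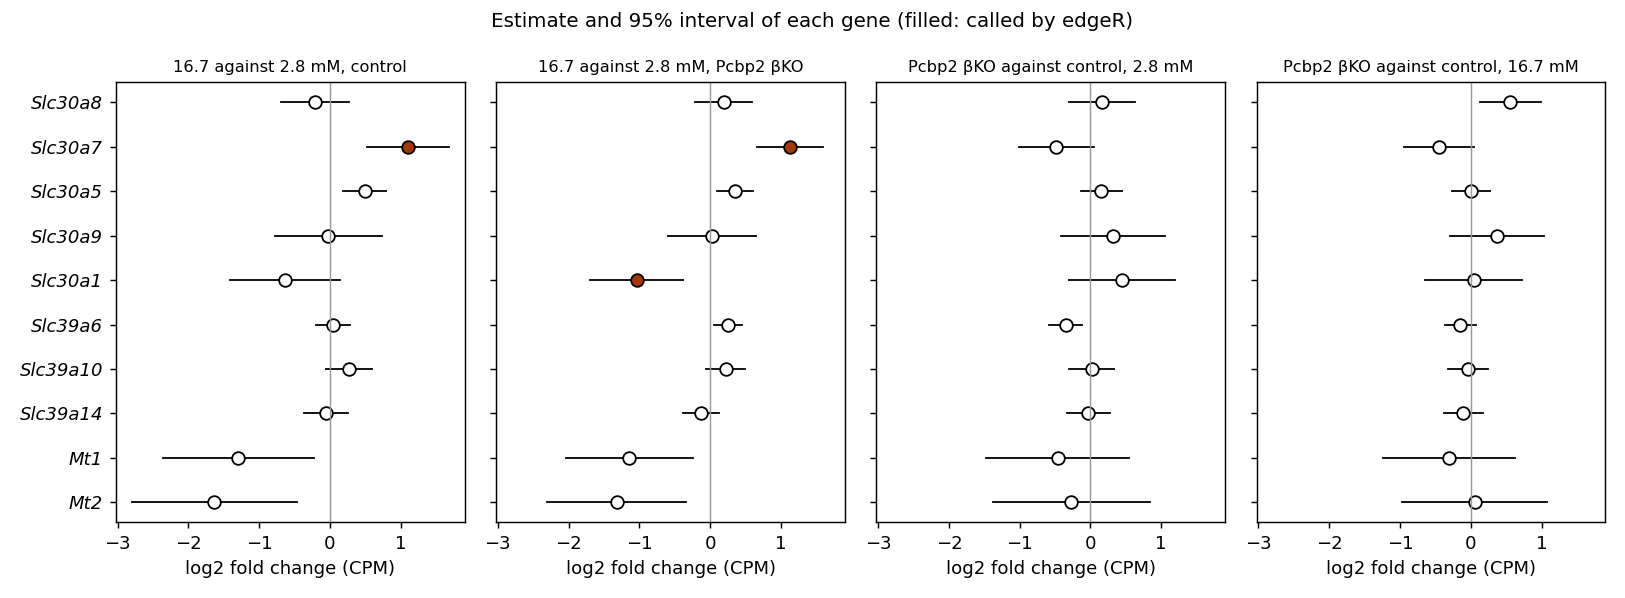
Log2 fold change of each gene in 4 comparisons, as the edgeR estimate with its approximate 95% interval, where filled points were called. Slc30a7 is filled at 1.10 and 1.13 in the 2 glucose comparisons and Slc30a1 at -1.04 in that of Pcbp2 βKO cells, while the widest intervals are those of Mt1 and Mt2.

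Slc30a7 encodes ZnT7, which moves zinc into the Golgi. It was at 62.9, 60.3 and 68.1 CPM in the control samples at 2.8 mM and at 144, 147, 183 and 74.0 CPM at 16.7 mM. All 4 samples at 16.7 mM were above all 3 at 2.8 mM, as for 11.8% of all tested genes, but replicate 4 was only just so. In edgeR the log2 fold change was 1.10 (standard error 0.29, adjusted p = 0.0165 by edgeR), a 2.15-fold difference. In Pcbp2 βKO cells the values were 50.6, 53.4, 43.1, 46.9 and 34.6 CPM at 2.8 mM and 124, 123, 128, 73.7 and 53.4 CPM at 16.7 mM. Replicates 1 to 3 at 16.7 mM were far above the 5 samples at 2.8 mM, replicate 4 was nearer, and replicate 5 met the highest of them. Here edgeR gave 1.13 on the log2 scale (standard error 0.24, adjusted p = 0.00164 by edgeR). With the 3 samples that stood apart left out, the log2 fold changes in edgeR were 1.29 in control and 1.41 in Pcbp2 βKO cells (adjusted p = 3.44e-05 and 1.66e-06). That choice was made after the values were seen. It removed the samples at 16.7 mM nearest to those at 2.8 mM on the first principal component, so this fit is no independent support for a glucose difference. In control cells, the edgeR call was lost without replicate 1 or 2 at 2.8 mM or replicate 3 at 16.7 mM (adjusted p = 0.0615, 0.0774 and 0.0549), and with total counts in place of TMM (log2 fold change 0.68, adjusted p = 0.0558).

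In TPM, Slc30a7 was at 11.1 ± 1.39 (SD, n = 3) and 14.5 ± 4.50 (SD, n = 4) in control cells and at 8.31 ± 1.28 and 9.09 ± 3.43 (SD, n = 5 each) in Pcbp2 βKO cells, at 2.8 and 16.7 mM. On that scale limma called neither difference, with log2 fold changes of 0.31 and 0.05 (adjusted p = 0.43 and 0.873, log2(TPM + 1)). Slc30a7 (ENSMUSG00000054414) spans 115732621 to 115801060 on chromosome 3, reverse strand. It overlaps, by 3409 bases in this annotation, Dph5, a gene of diphthamide synthesis on the opposite strand, and the strand of the reads is not given in the sources used here. Dph5 itself differed in the other direction, at 22.7 and 11.5 CPM in control cells at 2.8 and 16.7 mM and 24.9 and 11.2 CPM in Pcbp2 βKO cells (log2 fold changes -0.97 and -1.15, adjusted p = 0.00726 and 0.000195 by edgeR). Of the 31-base words of the main Slc30a7 transcript in GENCODE release M39, 19.5% also occur there in transcripts of other genes, most of them in the pseudogene Gm6649, which had no counts in any sample.

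Slc30a5 encodes ZnT5, which loads the early secretory pathway with zinc. Control samples had 129, 105 and 143 CPM at 2.8 mM and 164, 168, 214 and 162 CPM at 16.7 mM. Each of the latter was above each of the former, as for 11.8% of all tested genes, with replicate 3 highest. The difference was 0.49 on the log2 scale (standard error 0.16, adjusted p = 0.0389 by edgeR), and its fold of 1.41 was under the threshold, which it passed without replicate 3 at 2.8 mM (0.59 on the log2 scale). Pcbp2 βKO samples had 137, 129, 128, 137 and 167 CPM at 2.8 mM and 203, 192, 192, 157 and 145 CPM at 16.7 mM, where replicates 4 and 5 fell within the range of the 2.8 mM samples. This difference was 0.35 on the log2 scale (standard error 0.13, adjusted p = 0.0468 by edgeR), again under the fold threshold. The direction belongs to the CPM scale, since limma gave -0.30 and -0.68 in log2(TPM + 1) for control and Pcbp2 βKO cells (adjusted p = 0.174 and 0.000506).

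Slc30a8, which encodes the granule transporter ZnT8 and spans 52158949 to 52199194 on chromosome 15, forward strand, was the most abundant transporter of the 8. Control samples had 584, 668 and 490 CPM at 2.8 mM and 539, 449, 432 and 589 CPM at 16.7 mM. The ranges overlapped, and the log2 fold change was -0.21 (95% interval -0.69 to 0.27, adjusted p = 0.633 by edgeR). Pcbp2 βKO samples had 701, 1039, 531, 536 and 441 CPM at 2.8 mM and 808, 576, 702, 638 and 981 CPM at 16.7 mM. Replicate 2 at 2.8 mM was the highest of all samples, and the groups overlapped, with a log2 fold change of 0.19 (95% interval -0.21 to 0.59, adjusted p = 0.541 by edgeR). In TPM, the share of all transcripts, Slc30a8 stood at 298 ± 30.9 (SD, n = 3) and 153 ± 48.8 (SD, n = 4) in control cells at 2.8 and 16.7 mM and at 373 ± 142 and 208 ± 46.7 (SD, n = 5 each) in Pcbp2 βKO cells. All 4 control samples at 16.7 mM (127, 125, 134 and 226 TPM) were below the 3 at 2.8 mM (296, 330 and 268 TPM), whereas the groups of Pcbp2 βKO cells overlapped, since replicate 5 at 2.8 mM had 214 TPM and replicate 5 at 16.7 mM had 287 TPM. Ranges lay apart in this way in TPM for 40.6% of all tested genes in control cells. In limma on log2(TPM + 1), Slc30a8 was called lower at 16.7 mM in both genotypes (log2 fold change -0.79 in Pcbp2 βKO cells, adjusted p = 0.00956 in control and 0.00813 in Pcbp2 βKO cells), so the result for Slc30a8 depended on the scale.

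**Figure D3:**
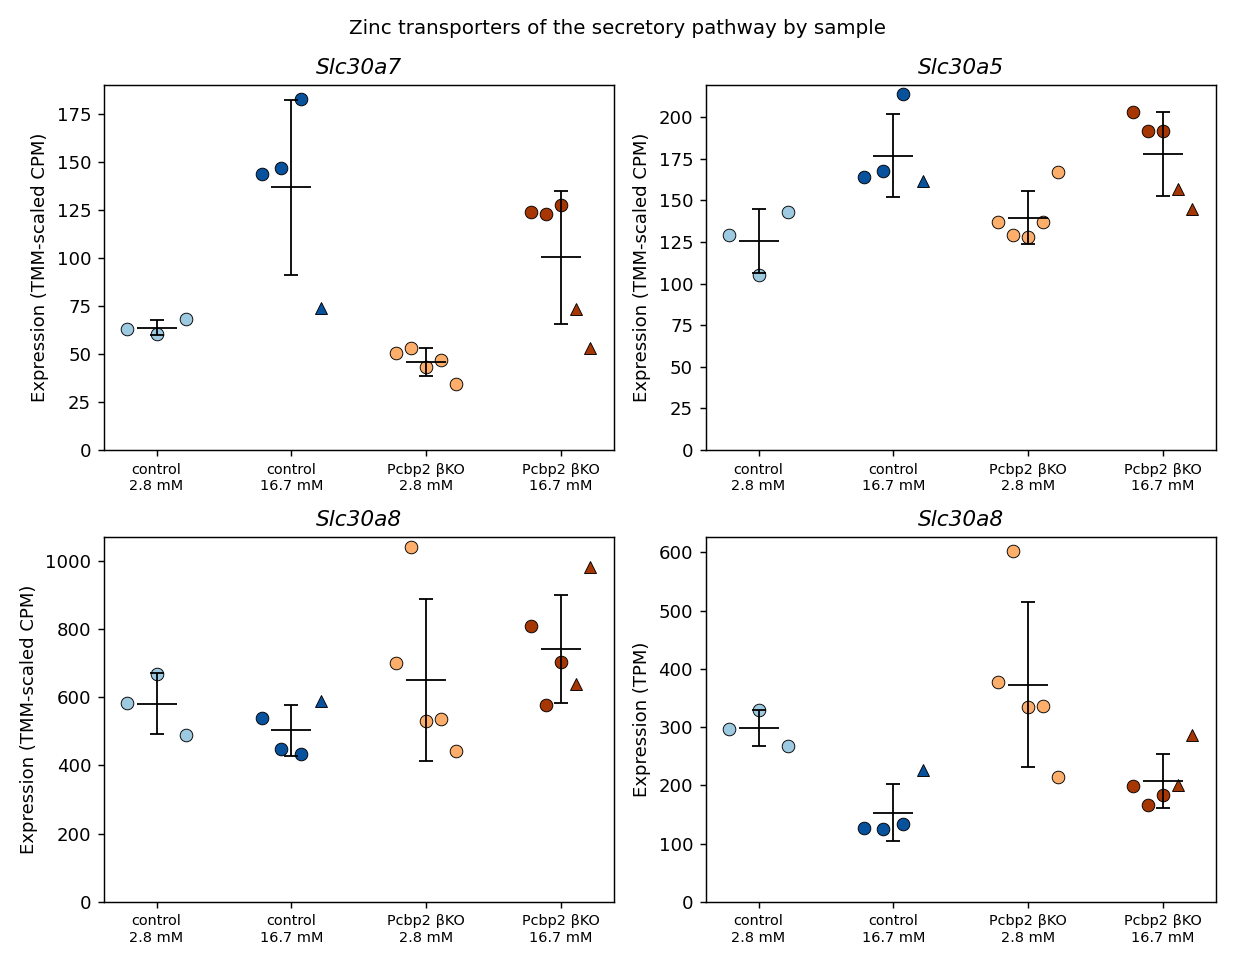
Slc30a7, Slc30a5 and Slc30a8 in TMM-scaled CPM and Slc30a8 again in TPM, with 1 point per sample, the mean as a horizontal bar and the SD as whiskers, and triangles for the 3 samples that stood apart. Slc30a7 is highest in 3 of 4 control and 3 of 5 Pcbp2 βKO samples at 16.7 mM, and Slc30a8 overlaps between glucose concentrations in CPM but not, for control cells, in TPM.

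Slc30a9 and Slc30a1 are the remaining exporters. Slc30a9, whose product ZnT9 moves zinc out of mitochondria, varied most within control cells at 16.7 mM, where replicates 1 and 2 had 31.8 and 40.8 CPM and replicates 3 and 4 had 113 and 129 CPM. At 2.8 mM the control samples had 55.9, 63.4 and 120 CPM. Pcbp2 βKO samples had 93.0, 99.5, 121, 119 and 65.7 CPM at 2.8 mM and 110, 114, 82.3, 115 and 85.7 CPM at 16.7 mM. The groups overlapped in every comparison, and none was called (adjusted p of 0.764 or more by edgeR). Slc30a1 encodes ZnT1, the exporter of the plasma membrane, and was at the bottom of the range in these cells. It had 1.68, 1.51 and 2.45 CPM in control samples at 2.8 mM and 0.920, 0.713, 1.98 and 1.22 CPM at 16.7 mM. The ranges overlapped through replicate 3 at 16.7 mM, and the difference was -0.64 on the log2 scale (standard error 0.40, adjusted p = 0.31 by edgeR). In Pcbp2 βKO samples it had 2.26, 2.11, 1.87, 3.33 and 3.31 CPM at 2.8 mM and 1.18, 0.995, 0.739, 1.00 and 2.30 CPM at 16.7 mM, so that replicate 5 at 16.7 mM alone reached the samples at 2.8 mM. Slc30a1 was called lower at 16.7 mM, with -1.04 on the log2 scale (standard error 0.33, adjusted p = 0.023 by edgeR). The estimated counts behind these values ran from 40.0 to 330.9 per sample, and the call was lost in 5 of 17 fits that each left out 1 sample, namely Pcbp2 βKO replicates 4 and 5 at 2.8 mM and 2, 3 and 4 at 16.7 mM (adjusted p of 0.0502 to 0.0645 by edgeR). Slc30a1 also overlaps 1700034H15Rik, a noncoding RNA gene on the opposite strand, by 832 bases. Of the 31-base words of its main transcript in GENCODE release M39, 8.36% also occur in that gene.

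None of the importers Slc39a6, Slc39a10 and Slc39a14 was called by edgeR with glucose in either genotype. Slc39a6 on chromosome 18 and Slc39a10 on chromosome 1 encode ZIP6 and ZIP10, related importers of the plasma membrane, and Slc39a14 on chromosome 14 encodes ZIP14, which carries iron and manganese as well as zinc. Slc39a6 had 87.1, 74.4 and 73.6 CPM in control samples at 2.8 mM, 70.1, 86.1, 83.6 and 84.3 CPM at 16.7 mM, 61.6, 65.3, 56.1, 62.1 and 62.5 CPM in Pcbp2 βKO samples at 2.8 mM and 68.8, 83.9, 65.7, 65.4 and 82.2 CPM at 16.7 mM. The lowest 5 values were those of Pcbp2 βKO cells at 2.8 mM. The glucose difference in these cells was 0.25 on the log2 scale (standard error 0.10, adjusted p = 0.0773 by edgeR) with ranges that did not overlap on the scale of the fit, as for 10.9% of all genes in that direction. Slc39a10 ranged from 18.1 to 35.0 CPM over all 17 samples and Slc39a14 from 12.7 to 19.7 CPM. For Slc39a10 the log2 fold changes with glucose were 0.27 and 0.22 in control and Pcbp2 βKO cells (adjusted p = 0.312 and 0.269 by edgeR). For Slc39a14 they were -0.06 and -0.13 (adjusted p = 0.854 and 0.503 by edgeR).

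Mt1 was the most abundant of the 10 transcripts at 2.8 mM, with 2449, 3035 and 1886 TPM in control samples and 2386, 1988, 2035, 2240 and 1404 TPM in Pcbp2 βKO samples. At 16.7 mM the control samples had 362, 294, 485 and 1303 TPM and the Pcbp2 βKO samples 184, 125, 155, 1032 and 761 TPM. All 9 samples at 16.7 mM were below all 8 at 2.8 mM on this scale, as for 25.3% of all tested genes, and the 3 high values at 16.7 mM belonged to the samples that stood apart on the first principal component. In CPM, control replicate 4 (606) and Pcbp2 βKO replicate 4 (609) at 16.7 mM reached the range of the samples at 2.8 mM, which was 594 to 1128 in control and 522 to 783 in Pcbp2 βKO cells. The log2 fold change in CPM was -1.30 in control cells (standard error 0.54, adjusted p = 0.117 by edgeR) and -1.14 in Pcbp2 βKO cells (standard error 0.46, adjusted p = 0.069 by edgeR), and neither was called.

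Mt2 followed the same order. Control samples had 502, 740 and 348 TPM at 2.8 mM and 61.9, 39.3, 67.2 and 262 TPM at 16.7 mM, and Pcbp2 βKO samples had 522, 553, 478, 502 and 437 TPM at 2.8 mM and 40.6, 28.9, 35.9, 247 and 151 TPM at 16.7 mM. Again no sample at 16.7 mM reached those at 2.8 mM in TPM, as for 25.3% of all tested genes. Control replicate 4 and Pcbp2 βKO replicates 4 and 5 were the highest at 16.7 mM. The log2 fold change in CPM was -1.64 in control cells (standard error 0.59, adjusted p = 0.0685 by edgeR) and -1.32 in Pcbp2 βKO cells (standard error 0.50, adjusted p = 0.0551 by edgeR), and again neither was called. Of the 652 31-base words of the main Mt2 transcript in GENCODE release M39, 66.0% also occur there in transcripts of other genes. Nearly all of these are in Gm45774, a noncoding RNA annotated on the opposite strand, which had mean levels of 1.78 to 3.19 CPM in the 4 groups. The main Mt2 transcript that was quantified is shorter, at 511 bases, so the share need not hold for it. No shared word was found for Mt1.

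Calls for both genes depended on the samples kept and on the setting. With the 3 samples that stood apart left out, a choice made after the values were seen, the log2 fold changes of Mt1 were -1.72 in control and -2.58 in Pcbp2 βKO cells (adjusted p = 0.000123 and 1.28e-06 by edgeR). Those of Mt2 were then -2.27 and -2.73 (adjusted p = 7.25e-05 and 4.35e-06 by edgeR). Single samples also decided calls. Without control replicate 4 at 16.7 mM, Mt1 and Mt2 were called in control cells (log2 fold changes -1.68 and -2.24, adjusted p = 0.0428 and 0.0129 by edgeR). Both were called in Pcbp2 βKO cells without replicate 4 at 16.7 mM (-1.63 and -1.90, adjusted p = 0.00924 and 0.00573 by edgeR) or without replicate 5 (-1.42 and -1.52, adjusted p = 0.0327 and 0.0429 by edgeR). Since all samples share 1 estimate of the spread, Mt2 was also called in control cells without Pcbp2 βKO replicate 2 or 4 at 16.7 mM (adjusted p = 0.0486 and 0.0377 by edgeR) and in Pcbp2 βKO cells without control replicate 2 or 4 at 16.7 mM (adjusted p = 0.0495 and 0.0345 by edgeR). With the replicate number as a block, edgeR gave -1.74 and -2.21 for Mt1 and Mt2 in control cells (adjusted p = 0.00986 and 0.00326), and the count of the 10 genes called there went from 1 to 3. The count over all tested genes went from 3153 to 4775. With all samples kept, edgeR called Mt2 in control cells with total counts in place of TMM or without the filter on low counts (adjusted p = 0.0369 and 0.0226). Both Mt1 and Mt2 were called by edgeR in Pcbp2 βKO cells with total counts (adjusted p = 0.0194 and 0.0171) and without the filter (0.0252 and 0.0164), and DESeq2 called Mt1 (adjusted p = 0.0295) but not Mt2 (0.0596). On the log2(TPM + 1) scale, limma called Mt1 and Mt2 as lower at 16.7 mM in both genotypes (log2 fold changes -2.24 to -2.82, adjusted p of 0.000354 to 0.0107). Markers of other islet cells also differed with glucose. The median alpha sum was 1369 and 321 CPM in control cells at 2.8 and 16.7 mM and 5309 and 425 CPM in Pcbp2 βKO cells, the median delta sum 383 and 229 and then 829 and 341 CPM, and the median of the PP cell marker 825 and 306 and then 1619 and 505 CPM. Within each group at 16.7 mM, all 3 were highest in the same samples that stood apart. Their part in the metallothionein values was not tested.

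**Figure D4:**
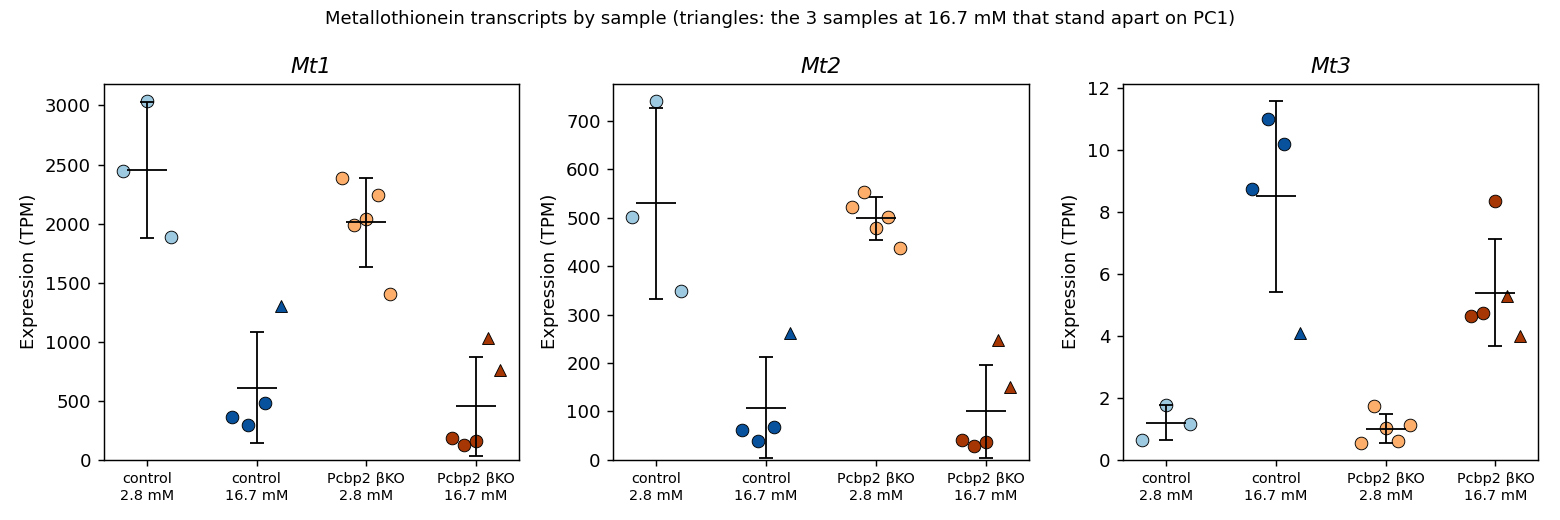
Mt1, Mt2 and Mt3 in TPM, with 1 point per sample, the mean as a horizontal bar and the SD as whiskers, and triangles for the 3 samples at 16.7 mM that stood apart. For Mt1 and Mt2 all points at 16.7 mM lie below those at 2.8 mM with the triangles highest among them, and for Mt3 all points at 16.7 mM lie above those at 2.8 mM.

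Mt1 and Mt2 moved together from sample to sample. Over the 17 samples Pearson's r of their log2 CPM was 0.967, and 0.972 after the group means were taken out, as a description of samples that share libraries and groups. Mt1 exceeded Mt2 in TPM by a mean factor of 4.80 ± 0.663 (SD, n = 3) in control cells at 2.8 mM and 6.38 ± 1.18 (SD, n = 4) at 16.7 mM. In Pcbp2 βKO cells the factors were 4.02 ± 0.589 and 4.47 ± 0.341 (SD, n = 5 each). Among the transporters, Slc30a7 and Slc30a5 ran against Mt1 over the samples (r = -0.730 and -0.830), and Slc30a8 had r = 0.035 with Mt1. Against Mt2 the values were -0.838 for Slc30a7 and -0.841 for Slc30a5.

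**Figure D5:**
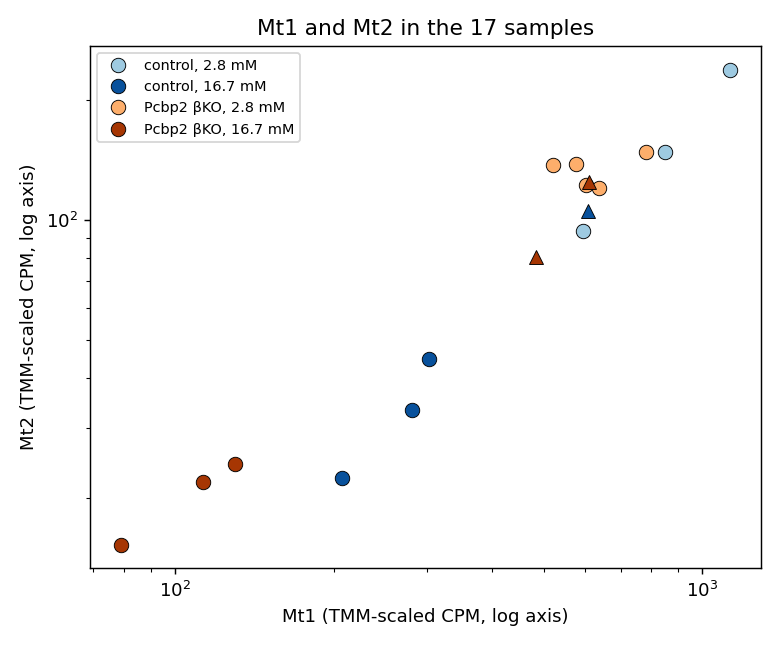
Mt1 against Mt2 in TMM-scaled CPM on log axes, with 1 point per sample coloured by group and triangles for the 3 samples that stood apart. The points lie along a line from 78.9 CPM of Mt1 and 15.3 of Mt2 in a Pcbp2 βKO sample at 16.7 mM to 1128 and 238 in a control sample at 2.8 mM, and the triangles lie among the samples at 2.8 mM or between them and the rest.

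The next comparisons asked how Pcbp2 βKO cells differed from control cells at each glucose concentration. At 16.7 mM none of the 10 genes was called by edgeR, where 1.71% of all tested genes were, and 1 of the 10 had an unadjusted p under 0.05, as did 12.1% of all genes. That gene was Slc30a8, at 502 CPM in control and 741 CPM in Pcbp2 βKO cells, a log2 fold change of 0.56 (95% interval 0.13 to 0.99, unadjusted p = 0.0196, adjusted p = 0.283 by edgeR). Only replicate 2 (576 CPM) of the Pcbp2 βKO samples fell within the range of the control samples, whose highest value was 589 CPM. Mt1 was at 349 and 283 CPM and Mt2 at 51.3 and 53.3 CPM in control and Pcbp2 βKO cells, with the 3 samples that stood apart on both sides. Without these, a choice made after the values were seen, Mt1 was lower in Pcbp2 βKO cells (log2 fold change -1.30, adjusted p = 0.00705 by edgeR, 3 samples against 3). In that fit it was the only call among the 10 between the genotypes at 16.7 mM. For this comparison that fit called 587 of 22352 tested genes.

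At 2.8 mM, edgeR likewise called none of the 10 genes, with 2.04% of all tested genes called, and 1 had an unadjusted p under 0.05, as did 12.9% of all genes. This was Slc39a6, with 78.4 CPM in control and 61.5 CPM in Pcbp2 βKO cells and a log2 fold change of -0.35 (95% interval -0.58 to -0.12, unadjusted p = 0.00871, adjusted p = 0.17 by edgeR). All 5 Pcbp2 βKO samples were below the 3 control samples for Slc39a6 and also for Slc30a7 (log2 fold change -0.48, 95% interval -1.01 to 0.05, adjusted p = 0.498 by edgeR), as for 6.88% of all tested genes. Mt1 had a log2 fold change of -0.46 (95% interval -1.47 to 0.55) and Slc30a8 one of 0.16 (95% interval -0.30 to 0.63), neither called. At this concentration the delta cell sum was 251 to 390 CPM in control and 480 to 1316 CPM in Pcbp2 βKO cells and the PP cell marker 797 to 835 and 992 to 5112 CPM, both without overlap, whereas the alpha cell sums given above overlapped. The summed macrophage markers, mostly C1qa, were at 78.0 to 99.7 and 24.2 to 35.4 CPM. Their part in these differences was not tested.

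Of 22 further zinc genes, 16 were tested, and 6 (Slc30a2, Slc30a3, Slc30a10, Slc39a5, Slc39a12 and Mt4) did not pass the filter on low counts. In control cells 5 of the 16 were called with glucose, all as higher at 16.7 mM, namely Slc30a6, Slc39a8, Slc39a9, Slc39a13 and Mt3, beside 13.8% of all tested genes called in either direction. The median log2 fold change was 0.63 over the 16 and 0.04 over all genes. In Pcbp2 βKO cells 5 were called, all as higher, namely Slc39a1, Slc39a8, Slc39a9, Slc39a13 and Mt3, beside 23.8% of all tested genes, with medians of 0.53 over the 16 and 0.01 over all genes. For several of these genes the direction belongs to the CPM scale. Mean TPM at 2.8 and 16.7 mM was 15.7 and 13.4 for Slc30a6 and 18 and 15.8 for Slc39a9 in control cells. In Pcbp2 βKO cells it was 16.8 and 11.3, and 19 and 13.9. Slc39a13 had 15.8 and 15.3 TPM in control and 16.8 and 18.1 TPM in Pcbp2 βKO cells. Slc39a1 was lower in mean TPM at 16.7 mM, and Slc39a8 and Mt3 were higher, in both genotypes. None of the 16 was called between genotypes at either concentration or for the interaction by edgeR, and none had an unadjusted p under 0.05 there. Among these genes, Slc30a6 encodes ZnT6, the partner of ZnT5 in the early secretory pathway, and had 27.2 and 43.3 CPM in control cells at 2.8 and 16.7 mM (log2 fold change 0.67, standard error 0.17, adjusted p = 0.014 by edgeR). In Pcbp2 βKO cells it had 26.6 and 39 CPM (log2 fold change 0.55, adjusted p = 0.00653 by edgeR). That fold of 1.47 was just under the threshold. Slc39a13, which encodes ZIP13 of intracellular membranes, had 18.8 and 38.0 CPM in control cells (log2 fold change 1.01, adjusted p = 0.0076 by edgeR) and 18.9 and 45.1 CPM in Pcbp2 βKO cells (log2 fold change 1.25, adjusted p = 0.00011 by edgeR). Mtf1, which encodes the factor MTF1 named above, was at 23.1 and 30.3 CPM in control cells (log2 fold change 0.39, adjusted p = 0.129 by edgeR) and at 18.8 and 27.0 CPM in Pcbp2 βKO cells (log2 fold change 0.52, adjusted p = 0.00828 by edgeR), under the fold threshold in both.

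Mt3, a metallothionein best known from the nervous system, differed in the direction opposite to its neighbours Mt1 and Mt2 on the chromosome. It had 0.651, 1.77 and 1.17 TPM in control samples at 2.8 mM and 8.74, 11, 10.2 and 4.10 TPM at 16.7 mM. In Pcbp2 βKO samples it had 0.543, 1.73, 1.04, 0.602 and 1.12 TPM at 2.8 mM and 4.63, 4.74, 8.36, 5.29 and 3.99 TPM at 16.7 mM. All 9 samples at 16.7 mM were above all 8 at 2.8 mM, as for 0.421% of all tested genes in TPM, and control replicate 4 was the lowest of its group. The log2 fold change was 3.74 in control cells (standard error 0.55, adjusted p = 0.000618 by edgeR) and 3.47 in Pcbp2 βKO cells (standard error 0.44, adjusted p = 2.22e-05 by edgeR). In CPM the means at 2.8 and 16.7 mM were 0.389 and 5.2 in control and 0.292 and 3.28 in Pcbp2 βKO cells. The size of the fold thus rests on values near the floor at 2.8 mM. Even so, the summed TPM of Mt1 and Mt2 exceeded that of Mt3 by a factor of 48.5, 30.4, 54.2 and 381 in the control samples at 16.7 mM and of 48.5, 32.4, 22.8, 242 and 228 in the Pcbp2 βKO samples. The 3 high factors are those of the samples that stood apart.

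In the deposited transcript estimates, Slc30a8 had a single transcript and Slc30a1 placed all its counts on 1 of 2. For Mt1, the main transcript took 90.8 to 94.4% of the gene's counts in the group means. The main transcript of Slc39a14 took 85.8% ± 1.37 (SD, n = 3) in control cells at 2.8 mM, 86.1% ± 4.22 (SD, n = 4) at 16.7 mM, 80.4% ± 5.18 in Pcbp2 βKO cells at 2.8 mM and 75.2% ± 3.77 at 16.7 mM (SD, n = 5 each). For Slc30a9, a transcript annotated for nonsense-mediated decay took 18.0% ± 11.9 (SD, n = 4) in control cells at 16.7 mM, with samples from 5.81 to 31.1%, and 5.47 to 7.44% in the other group means. These shares were not tested, since a pseudoaligner divides reads between overlapping transcripts by a model.

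Of the tested genes, 9762 averaged 5 CPM or more, and the closest of these to Slc30a8 in log2 CPM over the 17 samples were Rnf141, Adgrb3, Syt2, Fhdc1 and Slc24a2, with Pearson's r of 0.801, 0.775, 0.746, 0.743 and 0.735. After the group means were taken out, Fhdc1 had the highest of these at 0.855. Those closest to Mt1 were Acot13, Hmox2, Cyp4f39, Arsa and Cwc27, with r of 0.953, 0.938, 0.937, 0.932 and 0.931, and of 0.870 to 0.942 after the group means were taken out. The samples share groups, library depth and the 3 samples that stood apart, and the values are descriptions.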

How the data were processed

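Read pairs from sorted β cells were pseudoaligned by the authors to the GRCm39 mouse transcriptome with Kallisto. The authors deposited, for 142376 transcripts per sample, estimated counts that are not normalized between samples. They also deposited TPM, scaled by effective transcript length to the same total in each sample. Versions are not given in the sources used here. Groups and replicate numbers came from the labels.

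Estimated counts were summed per gene and rounded, and TPM were summed per gene. Genes passing edgeR's expression filter (22784 of 55357) were fitted in 1 model of the 4 group means with TMM factors and the quasi-likelihood F test (edgeR 4.0.16, R 4.3.3). The 5 contrasts were tested, with Benjamini-Hochberg adjustment over all tested genes. Calls used the study's thresholds, 0.05 for the adjusted p and 1.5 for the fold. The study's batch factor is not in the labels and was not fitted. Standard errors came from the estimate and its F statistic, and 95% intervals from 1.96 standard errors. Log2 CPM used a prior count of 2. The code was tested on simulated counts.

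Alternatives were other scalings, no filter, DESeq2 1.42.0, limma 3.58.1 on log2(TPM + 1) and log2(TPM + 0.1), the replicate number as a block and each sample left out. Same-numbered control samples at 2.8 and 16.7 mM deviated together from their group means, with r of 0.123 to 0.258, each above the limit of 0.1 used here. The labels do not say what the numbers mean, so pairing of these samples is inferred from weak correlations and not established. The main fit does not use the number. In the other pairs of groups at least 1 pair was at or below 0.1, though replicates 4 of both genotypes at 16.7 mM reached 0.354. Over all pairs of groups, the median r was 0.096 for same-numbered samples (22 pairs) and -0.0155 for the others (85 pairs). All 10 genes, the 22 further zinc genes, the marker lists and the nearest correlates were named by a rule written with earlier results of these data known. Positions, upstream sequences and the transcript sequences used for shared words came from GRCm39 and GENCODE release M39. Transcript sequences there can differ from those that were quantified.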

Additional observations from a re-analysis of the deposited data

Results flagged for a closer look

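In 3 of the 30 combinations of gene and group with at least 4 samples, 1 sample lay far from the others of its group by Dixon's criterion, which chance meets in about 1 of 20 groups. Slc30a5 had 214 CPM in control replicate 3 at 16.7 mM, against 162 to 168 CPM in the other 3 samples. Slc30a5 also had 167 CPM in Pcbp2 βKO replicate 5 at 2.8 mM, against 128 to 137 CPM in the other 4. Slc39a6 had 70.1 CPM in control replicate 1 at 16.7 mM, against 83.6 to 86.1 CPM in the other 3. No cause was tested for any of these.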

How the results depend on the processing

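The number of the 10 genes called depended on the setting for both glucose comparisons. In control cells it was 1 (Slc30a7), stayed 1 with total counts, where the gene called was Mt2 in place of Slc30a7, and became 2 without the fold threshold, 2 without the filter on low counts, 5 and 7 in limma on log2(TPM + 1) and log2(TPM + 0.1), 3 with the replicate block, 3 without the 3 samples that stood apart, and 0 to 3 with single samples left out. In Pcbp2 βKO cells it was 2, and became 3 without the fold threshold, 3 in DESeq2 (Slc30a1, Slc30a7 and Mt1), 5 with total counts, 4 without the filter, 8 and 9 in limma, 4 with the replicate block, 4 without the 3 samples, and 1 to 4 with single samples left out. Of all 22784 tested genes, the main fit called 3153 in control cells and 5431 in Pcbp2 βKO cells. Total counts called 4837 and 7851, and the replicate block 4775 and 5900. Limma called 6975 and 8831 on log2(TPM + 1) and 8902 and 12449 on log2(TPM + 0.1). DESeq2 called 3901 and 5892. Without the filter 3118 and 5354 of 44935 genes were called, and without the 3 samples 4898 and 6390 of 22352. For the knockout at 16.7 mM the number of the 10 genes called was 0, and 1 without the 3 samples. For the knockout at 2.8 mM and the interaction it was 0 in every setting. On the TPM scales in limma the sign turned, with a call there, for Slc39a6 in control cells (-0.70 and -0.74) and in Pcbp2 βKO cells for Slc30a5 (-0.68 and -0.69), Slc30a8 (-0.79 and -0.79), Slc30a9 (-1.36 and -1.39), Slc39a6 (-0.75 and -0.80) and Slc39a10 (-0.63 and -0.80), where the median of all genes was -0.33 and -0.71. Signs of small differences called in neither fit also turned in some settings, and these were counted as unchanged. For the further zinc genes, single samples left out moved the 5 calls in control cells to as few as 2 and the 5 in Pcbp2 βKO cells to between 3 and 9. In Pcbp2 βKO cells same-numbered samples at 2.8 and 16.7 mM had r of 0.0664 to 0.193. Not all were above the limit of 0.1, so the numbers did not pass the check for pairing. All were above the highest r of differently numbered samples of these groups, 0.0445, so pairing there is neither established nor excluded. The block there is given for completeness. No sample of Slc30a1 had more than 330.9 estimated counts, so among the 10 genes depth limits its values most.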
